A study of Mus musculus with 34 samples.

Results

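Macrophages with high osteopontin mRNA (Spp1) and Gpnmb mRNA were selected from single-cell libraries of mouse mammary tumours, and they are called Spp1 Gpnmb macrophages here. A cell was selected if it had 500 or more unique molecular identifiers (UMIs, 1 per captured mRNA molecule), 200 or more genes and under 20% mitochondrial UMIs, at least 1 UMI of Csf1r or Adgre1, none of Cd3e, Epcam or Folr2, 10 or more Spp1 UMIs per 10000 UMIs, and at least 1 Gpnmb UMI. Of 6689 macrophages (the same filters, with Csf1r or Adgre1 and without Cd3e and Epcam) among 43197 cells in all, 315 met the rule. They were set against 2553 comparison macrophages, which had 5 or more UMIs of C1qa, C1qb and C1qc together, Spp1 under 2 per 10000 and no Gpnmb.

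The tumours were MMTV-Wnt1 tumours, in which the mouse mammary tumour virus promoter drives the Wnt1 oncogene, transplanted into C57BL6j mice. Doxorubicin, a chemotherapy drug that damages DNA, was given as 5 doses of 4 mg/kg. Magnetically sorted CD45-positive immune cells gave 2 libraries from tumours taken 48 h after the last doxorubicin dose and 2 libraries from untreated tumours. Sorting for CD4/8-positive cells gave 6 further libraries, 1 per group, and the macrophages in them came through a gate meant for T cells. These were doxorubicin at 48 h, doxorubicin followed by 200 µg anti-PD1 with 200 µg IgG, 200 µg anti-CTLA4 with 200 µg IgG, 200 µg of both antibodies, or 400 µg IgG, and untreated. Antibodies were given 3 times, 72 h apart, with harvest 24 h after the last dose, so these 4 libraries were also taken later after doxorubicin. All groups carried the same transplanted tumour model, and the labels do not say whether libraries of 1 group came from separate mice, so p-values measure the spread between these libraries only. A pooled table of whole tumours from C57BL6/j female mice of 6 to 8 weeks held 25 more selected cells and is used only for description, since its 2 barcode sets, with 1508 and 2508 cells, could not be tied to a treatment.

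Spp1 encodes osteopontin, a secreted phosphoprotein that binds integrins and CD44, and Gpnmb encodes a glycoprotein of lysosomal and surface membranes. Macrophages that carry both, often with the phagocytic receptor gene Trem2, are known from fatty, injured and tumour tissue, where they take up lipid and debris and are called lipid-associated or scar-associated macrophages. Their lipid handling uses the scavenger receptor Cd36, lipoprotein lipase (Lpl) and fatty acid binding proteins, and Mmp12 is the macrophage elastase that cuts extracellular matrix.

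The sequences before the start sites of both selecting genes and of 3 genes that were higher in the selected cells are shown because the results below turn on these genes. RefSeq promoter sequences on GRCm38.p6 matched 59 of the 88 genes named in the comparison with other macrophages. Each line gives the 250 bases before the start site, 5′ to 3′ along the gene, with capitals for matches on either strand to any of 4 motifs.
Spp1, chr5:104434861-104435110, plus strand: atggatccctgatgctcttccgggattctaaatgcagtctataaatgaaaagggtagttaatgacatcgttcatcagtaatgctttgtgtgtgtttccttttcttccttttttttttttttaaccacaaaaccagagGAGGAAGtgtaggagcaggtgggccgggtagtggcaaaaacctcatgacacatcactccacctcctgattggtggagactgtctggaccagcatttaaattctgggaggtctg
Gpnmb, chr6:49036268-49036517, plus strand: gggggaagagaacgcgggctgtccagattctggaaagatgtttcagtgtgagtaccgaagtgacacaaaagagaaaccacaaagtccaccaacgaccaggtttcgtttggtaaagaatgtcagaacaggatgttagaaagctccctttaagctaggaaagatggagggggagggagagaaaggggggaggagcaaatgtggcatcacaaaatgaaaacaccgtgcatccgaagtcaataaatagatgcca
Mmp12, chr9:7344147-7344396, plus strand: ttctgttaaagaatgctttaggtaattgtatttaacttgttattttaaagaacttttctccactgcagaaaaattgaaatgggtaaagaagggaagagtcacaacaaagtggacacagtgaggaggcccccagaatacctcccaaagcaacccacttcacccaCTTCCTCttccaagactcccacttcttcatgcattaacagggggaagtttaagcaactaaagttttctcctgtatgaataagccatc
Ctsd, chr7:142387828-142388077, minus strand: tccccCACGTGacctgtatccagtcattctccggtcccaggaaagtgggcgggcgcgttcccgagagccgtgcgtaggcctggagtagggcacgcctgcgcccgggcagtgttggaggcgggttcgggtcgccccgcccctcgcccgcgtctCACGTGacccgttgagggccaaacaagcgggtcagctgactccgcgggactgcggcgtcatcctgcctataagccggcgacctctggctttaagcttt
Ctsl, chr13:64370521-64370770, minus strand: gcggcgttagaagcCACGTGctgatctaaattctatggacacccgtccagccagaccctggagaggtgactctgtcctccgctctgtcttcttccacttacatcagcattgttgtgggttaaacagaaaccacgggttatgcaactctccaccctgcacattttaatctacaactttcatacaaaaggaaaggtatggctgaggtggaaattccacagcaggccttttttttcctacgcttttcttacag
The motif CACGTG is an E-box bound by the TFE/MITF family among others. A related form of it is TCATGTG, as found in pigment cell genes. The AP-1 motif searched was TGANTCA, where N is any base. The PU.1 and ETS type motif searched was GAGGAAG, with its reverse complement. The capitals in Spp1 and Mmp12 are ETS type matches, those in the cathepsin genes Ctsd and Ctsl are E-box matches, and none of the 4 motifs was in the Gpnmb window. Of 73 windows of named genes, including several starts for some genes, 6 held the first of these motifs, 3 the related form, 6 the AP-1 motif and 17 the ETS type motif. Over all 32851 windows in the table the shares were 6.02%, 3.25%, 6.75% and 10.6%. A further Mmp12 start, with its window at chr9:7347124-7347373, held the related form and the AP-1 motif. The matches are letters in these windows and not measured binding.

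The selected cells were found in every library but at very different shares of its macrophages. In the CD45 libraries they were 3.17% (18 of 568) and 4.07% (67 of 1647) of macrophages after doxorubicin, against 1.24% (14 of 1126) and 0.664% (4 of 602) in untreated tumours. Both doxorubicin libraries lay above both untreated libraries. The mean share was 3.62% ± 0.64 after doxorubicin and 0.954% ± 0.409 in untreated tumours (SD, n = 2 each), a difference of 2.66 percentage points with p = 0.333 in a two-sided exact permutation test, the smallest p that 2 against 2 libraries allow. The exact 95% binomial intervals cover counting error only. They were 1.89 to 4.96% and 3.17 to 5.14% after doxorubicin, against 0.681 to 2.08% and 0.181 to 1.69% in untreated tumours. The macrophages counted differed between the groups. Comparison macrophages were 11.97% and 19.6% of them after doxorubicin, against 46.4% and 68.8% in untreated tumours. Leaving out cells with marker UMIs of other lineages or in the top 5% of UMIs left 15 and 241 macrophages, against 699 and 404. The part of this difference in the shares was not tested. Of all filtered cells, selected cells were 1.22% and 1.68%, against 0.391% and 0.223%.

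Free RNA can carry a cell past such thresholds, as can a T cell and a macrophage in 1 droplet, and T cells (Cd3e at 1 UMI or more) were counted as a background. Activated T cells are known to be able to make Spp1 themselves, so this count is not a pure level of free RNA. T cells with Spp1 and Gpnmb past both thresholds made up 2.08% (3 of 144) and 1.16% of T cells in the doxorubicin CD45 libraries, against 0.104% and 1.18% in the untreated ones. All of these cells of the CD45 libraries also held a UMI of Csf1r or Adgre1: among T cells without either, 0 of 113 and 0 of 360 passed after doxorubicin, against 0 of 836 and 0 of 258, which allows shares of up to 2.65% and 0.833%, against 0.359% and 1.16%. The share of 0.664% in untreated library 2 lay below the count of T cells and below the last of these limits, and its 4 cells are not read as a measured share. In doxorubicin library 1 the limit of 2.65% was near its share of 3.17%. Macrophages past both thresholds, without the Folr2 condition that T cells were not held to, were 7.22% and 5.34% after doxorubicin, against 1.60% and 0.664% in untreated tumours. Median UMIs per macrophage were 6474 and 4804 in the doxorubicin CD45 libraries, against 11652 and 12708 in the untreated ones. Median UMIs per T cell were 10745 and 8027, against 9775 and 18005. Over all filtered cells outside the macrophages, Spp1 was 3.56 and 4.82 UMIs per 10000 in the doxorubicin CD45 libraries, against 0.334 and 0.944 in the untreated ones. Gpnmb there was 0.324 and 0.425, against 0.0548 and 0.121. Both selecting genes were thus higher outside macrophages after doxorubicin, as was the share of selected cells. The part of free RNA in that share was not tested.

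In the CD4/8 libraries the share was 5.08% (30 of 590 macrophages) at 48 h after doxorubicin, 18.2% (95 of 523) after doxorubicin and anti-PD1, 6.99% (10 of 143) after doxorubicin and anti-CTLA4, 8.0% (6 of 75) after doxorubicin and both antibodies, 15.9% (33 of 208) after doxorubicin and IgG, and 4.09% (13 of 318) in the untreated library. The anti-PD1 and IgG libraries were highest, and the intervals of the untreated library (2.19 to 6.89%) and of the 48 h library (3.46 to 7.18%) overlapped. Without high-UMI and mixed cells the shares were 1.78% at 48 h, 9.09% with anti-PD1, 1.90% with anti-CTLA4, 2.04% with both and 9.93% with IgG, against 3.81% untreated, so the 48 h, anti-CTLA4 and combination libraries then lay below the untreated one. T cells past both thresholds stayed between 0.0374% and 0.523% in these 6 libraries, and at 0.163% or less without Csf1r and Adgre1. Each group was 1 library, so the groups were not tested. With the CD4/8 libraries at 48 h and untreated added to the CD45 libraries, the mean share was 4.11% after doxorubicin and 1.999% in untreated tumours, the groups overlapped, and the two-sided exact permutation p was 0.3 (n = 3 each).

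**Figure D1:**
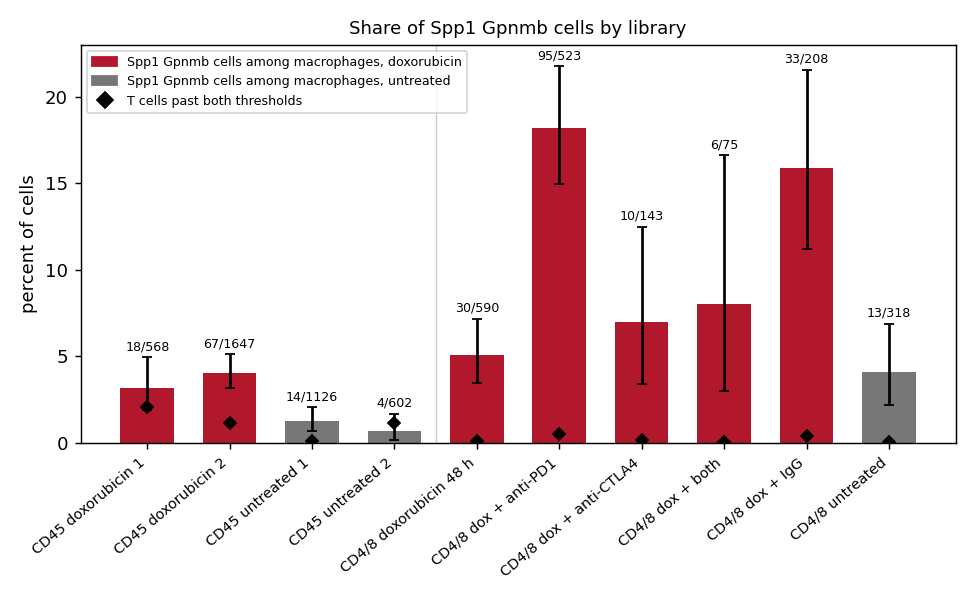
Share of Spp1 Gpnmb macrophages among all macrophages of each sorted library (bars, percent, with exact 95% binomial intervals and cell counts above), doxorubicin-treated in red and untreated in grey, and the share of T cells past both thresholds (diamonds). The shares ran from 3.17 to 4.07% in doxorubicin and from 0.664 to 1.24% in untreated CD45 libraries, and the highest was 18.2% in the anti-PD1 library.

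Spp1 and Gpnmb set the membership, so their levels are given as a description. Over the selected cells of each library, Spp1 summed to 114.0 and 135.9 UMIs per 10000 in the doxorubicin CD45 libraries, against 57.7 and 50.4 in the untreated ones. In the CD4/8 libraries Spp1 was 161.0 at 48 h, 113.9 with anti-PD1, 158.4 with anti-CTLA4, 46.9 with both, 91.9 with IgG and 37.1 untreated. Gpnmb was 12.3 and 10.1 UMIs per 10000 in the doxorubicin CD45 libraries, against 4.87 and 4.15 in the untreated ones. In the CD4/8 libraries Gpnmb was highest with anti-PD1, at 31.1, and lowest with both antibodies, at 6.20. Per cell, Spp1 ran from 10.0 to 1045 per 10000 with a median of 58.2, and Gpnmb from 0.19 to 126.0 with a median of 8.18.

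Cells on either side of the Spp1 threshold are given as a description. Selected cells with Spp1 at 10 to 15 per 10000 (29 cells) had 10.3 Gpnmb, 27.0 Mmp12, 8.11 Cd36, 7.10 Lpl and 64.2 Cd74 UMIs per 10000. Cells that met every other condition with Spp1 at 5 to 10 (42 cells) had 8.72 Gpnmb, 23.2 Mmp12, 3.40 Cd36, 8.74 Lpl and 61.4 Cd74. Those with Spp1 at 2 to 5 (55 cells) had 5.335 Gpnmb, 35.6 Mmp12, 5.685 Cd36, 6.65 Lpl and 62.7 Cd74. Mmp12 was thus higher there than in selected cells at 10 to 15. Selected cells with Spp1 at 100 or more (102 cells) had 25.8 Gpnmb, 63.6 Mmp12, 10.49 Cd36, 29.95 Lpl and 8.35 Cd74. A further 302 macrophages met the rule except that Gpnmb was at 0. They were shallow, with a median of 5001 UMIs, and their S100a8 sum was 88.6 per 10000. Another 144 failed only by a Folr2 UMI and had 39.3 Mmp12 and 17.2 Lpl per 10000.

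Mmp12, Cd36 and Lpl, which the rule did not use, were given as markers with the label of lipid-type cells. The cells were chosen with earlier results of these data known. The levels of these 3 genes, here and below, therefore describe the label and are no independent check of it. All 3 were present together in 169 of the 315 cells (53.6%), at least 1 in all but 26 (8.25%). In the sorted libraries Mmp12 was detected in 69.0% of selected cells, 29.0% of comparison macrophages and 5.14% of T cells without Csf1r and Adgre1, at median depths of 14105, 8683 and 8617 UMIs. Cd36 was detected in 74.5% of selected cells, 18.5% of comparison macrophages and 0.995% of T cells. Lpl was detected in 81.7% of selected cells, 39.9% of comparison macrophages and 1.68% of T cells. With every cell thinned to 2000 UMIs (11 of 290 selected and 306 of 2240 comparison cells were shallower and left out) the shares for selected and comparison cells were 55.6% and 17.8% for Mmp12, 54.5% and 7.497% for Cd36, and 65.2% and 21.8% for Lpl.

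Other genes were tested between selected and comparison macrophages in the 4 libraries that held at least 20 cells of both, with the library as a block. All 4 came from doxorubicin-treated tumours: CD45 doxorubicin library 2 and the CD4/8 libraries at 48 h, with anti-PD1 and with IgG. Of 7713 genes, 1750 (22.7%) were called, 822 (10.7%) higher and 928 lower, at a Benjamini-Hochberg adjusted p under 0.05 in edgeR's quasi-likelihood test. These shares come from a contrast that Spp1, Gpnmb and the C1q genes define, so nothing is read from their size. A member of a list below is called higher or lower only if it passed this test, and the median log2 fold change over all 7713 genes was -0.01.

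Mmp12 was 81.8 per 10000 in selected cells of CD45 doxorubicin library 2, 35.7 at 48 h, 33.1 with anti-PD1 and 32.3 with IgG, against 8.32, 5.01, 4.11 and 5.16 in comparison macrophages of those libraries. The 2 classes did not overlap, and Mmp12 was higher in selected cells in all 10 sorted libraries. The log2 fold change of Mmp12 was 3.06 ± 0.14 (SE, adjusted p = 4.1e-12 by edgeR). Cd36 was 11.1, 9.0, 7.03 and 9.20 per 10000 in selected cells, against 0.890, 0.191, 0.721 and 0.812 in comparison macrophages. Its log2 fold change was 4.03 ± 0.45 (adjusted p = 0.0060), again with the same direction in 10 of 10 libraries. Lpl was 34.8, 24.5, 13.8 and 13.5 per 10000 in selected cells, against 3.36, 2.84, 1.71 and 6.79. The classes did not overlap, but Lpl missed the threshold at a log2 fold change of 2.77 ± 0.59 (adjusted p = 0.061), and it passed when all 10 libraries were fitted, at 2.79 (adjusted p = 1.6e-05).

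**Figure D2:**
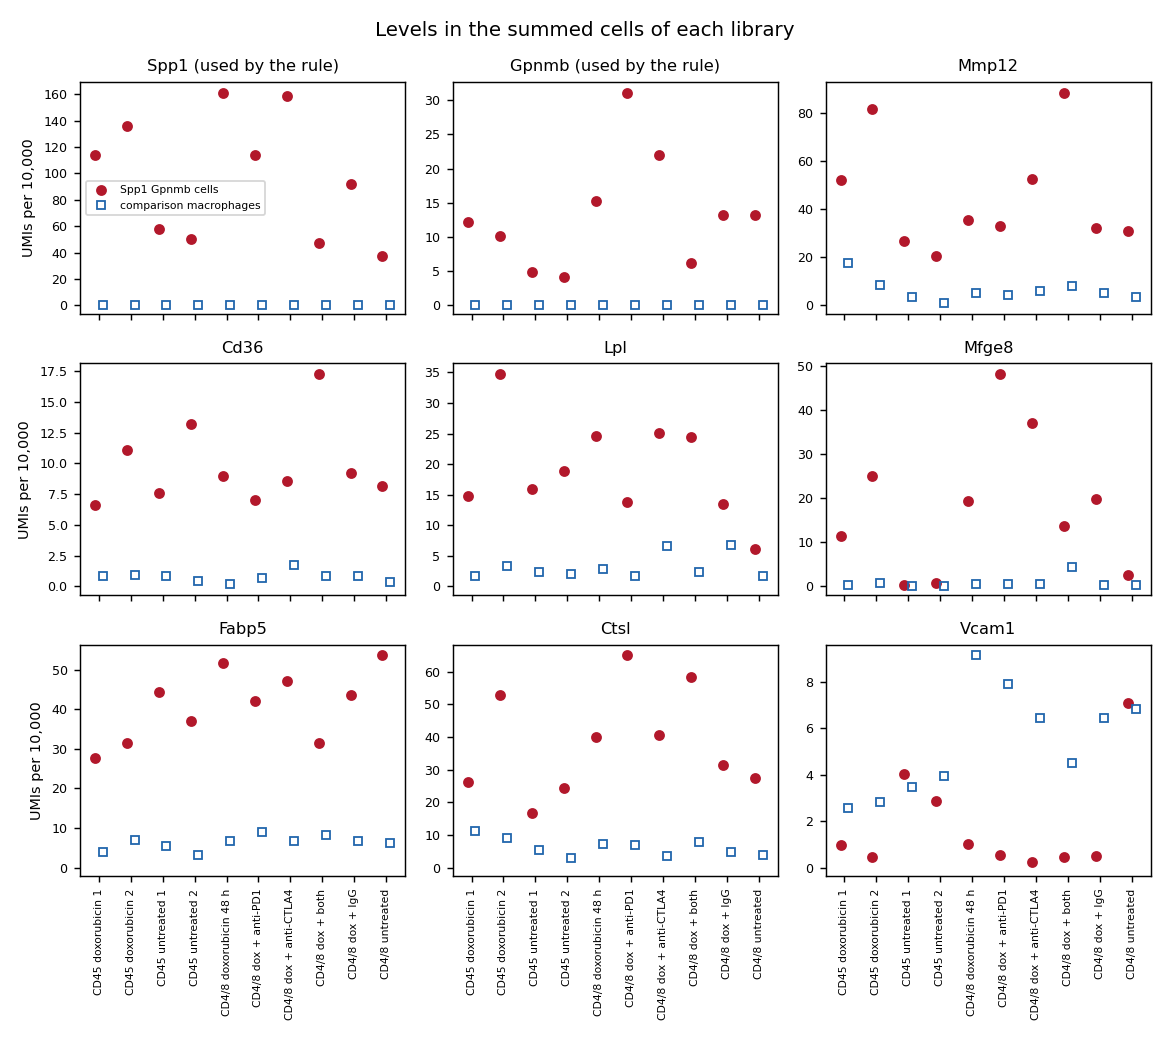
Level of 9 genes in the summed Spp1 Gpnmb macrophages (filled circles) and comparison macrophages (open squares) of each of the 10 sorted libraries, in UMIs per 10000 UMIs on linear axes that differ between panels. Spp1 and Gpnmb were used to select the cells; Mmp12, Cd36, Lpl, Fabp5 and Ctsl lay higher in selected cells in all 10 libraries, and Mfge8 was low in selected cells of the 3 untreated libraries.

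Lipid-associated macrophage genes were mostly higher in selected cells. Of 30 such genes tested, 23 were higher and 1 lower, with a median log2 fold change of 1.48. The fatty acid binding protein gene Fabp5 averaged 42.2 ± 8.2 per 10000 in selected cells and 7.39 ± 1.05 in comparison macrophages (SD, n = 4), and its relative Fabp4 averaged 1.63 ± 0.46 and 0.038 ± 0.025. The log2 fold changes were 2.61 ± 0.13 for Fabp5 and 5.43 ± 0.27 for Fabp4. Trem2, the lipid-sensing receptor gene, was higher by 1.13 ± 0.14 (adjusted p = 2.0e-06), from 3.19 to 11.7 per 10000 in selected cells and from 1.42 to 4.89 in comparison macrophages over the 10 libraries, so the ranges overlapped. Apoe, which codes for the carrier protein of cholesterol-rich lipoproteins, was the gene of this list that was lower, by a log2 fold change of -1.18 ± 0.19 (adjusted p = 0.0024).

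Lipid uptake and storage genes followed, with 13 of 23 higher, 1 lower and a median of 0.88. They included Plin2, the coat protein gene of lipid droplets (7.505 ± 1.20 per 10000 in selected cells and 2.95 ± 0.38 in comparison macrophages), with a log2 fold change of 1.45 ± 0.14. Of 13 genes of cholesterol efflux and its LXR control, 1 was higher and 3 were lower (median -0.35): the desaturase gene Scd2 was higher, at 1.65 ± 0.16, and the phospholipid transfer protein gene Pltp was lower, at -1.97 ± 0.26.

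Lysosomal genes were divided. Of 35 tested, 12 were higher, 2 lower and 21 not called, with a median of 0.31. Cathepsin genes led: Ctsl averaged 47.4 ± 14.8 per 10000 in selected cells and 7.03 ± 1.77 in comparison macrophages, and Ctsd averaged 72.7 ± 18.3 and 28.5 ± 9.7. Their log2 fold changes were 2.85 ± 0.14 and 1.48 ± 0.15, and both were higher in 10 of 10 libraries. Ctsk, the collagen-cutting cathepsin of bone-resorbing osteoclasts, was 1.31 ± 0.69 per 10000 in selected cells and 0.067 ± 0.088 in comparison macrophages, with a log2 fold change of 4.30 ± 0.35. Atp6v0d2, a subunit gene of the proton pump that osteoclasts use, was 2.68 ± 0.76 and 0.183 ± 0.099 (log2 fold change 4.05 ± 0.39). In the osteoclast and cell fusion list 4 of 15 genes were higher and none lower, and the fusion gene Dcstamp was the fourth with Ctsk, Atp6v0d2 and Cd44. Dcstamp was higher in 6 of the 10 libraries and lower in 4. Cd44, at 0.46 ± 0.15, lost its edgeR call without the 48 h or the IgG library (highest adjusted p = 0.19).

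Genes for the handling of dying cells and of matrix were among the largest differences. Mfge8, whose protein bridges phosphatidylserine on dying cells to integrins of the phagocyte, was 24.99, 19.4, 48.2 and 19.9 per 10000 in selected cells of the CD45 doxorubicin, 48 h, anti-PD1 and IgG libraries, against 0.728, 0.449, 0.503 and 0.241 in comparison macrophages. The log2 fold change of 5.92 ± 0.31 (adjusted p = 3.2e-05) was the largest among named genes that were higher. Uptake genes as a list were split, with 6 of 21 higher and 5 lower (median -0.33): Anxa1 (3.20 ± 0.20) and Cd300lf (1.27 ± 0.15) were higher, and the receptor tyrosine kinase genes Axl (-1.31) and Mertk (-0.56) lower. Mertk lost its edgeR call without any 1 of the CD4/8 libraries (highest adjusted p = 0.11). In the matrix remodelling list 7 of 20 genes were higher and 1 lower (median 0.31), led after Mmp12 by the sheddase gene Adam8 (2.08 ± 0.16) and the syndecan gene Sdc1 (3.26 ± 0.26).

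Other genes with large positive differences were Plpp3, a lipid phosphatase gene, at 4.99 ± 0.27, the ubiquitin ligase gene Rnf128 at 4.40 ± 0.23, the glypican gene Gpc1 at 4.22 ± 0.36, the DNA helicase gene Zranb3 at 4.22 ± 0.26 and the interleukin-7 receptor gene Il7r at 3.71 ± 0.35. Il7r was 2.50 ± 0.55 per 10000 in selected cells and 0.217 ± 0.110 in comparison macrophages, and it was higher in 10 of 10 libraries. Zranb3 was higher in 8 of 10 libraries and Plpp3 in 9 of 10.

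Most glycolysis and hypoxia genes were higher. Of 30 tested, 23 were higher and 1 lower, with a median of 1.04. Bnip3l, a mitophagy receptor gene, was 2.91 ± 0.50 per 10000 in selected cells and 1.03 ± 0.22 in comparison macrophages, and the glycolytic enzyme gene Pgk1 was 7.37 ± 1.89 and 2.96 ± 0.89. The log2 fold changes were 1.63 ± 0.15 and 1.44 ± 0.13. Pgam1, another glycolytic enzyme gene, was higher by 1.47 ± 0.14. Pfkfb3, a regulator of glycolysis, was the lower one, at -0.88, and lost its edgeR call without the anti-PD1 library (adjusted p = 0.056).

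In the arginine and itaconate list 5 of 14 genes were higher and 1 lower (median 0.63). Arg1, the arginine-degrading enzyme of alternatively activated macrophages, averaged 17.2 ± 1.9 per 10000 in selected cells and 3.45 ± 2.36 in comparison macrophages (log2 fold change 2.63 ± 0.28, adjusted p = 0.0013). Il4ra, the receptor gene for the cytokines that induce it, was lower, at -1.45 ± 0.19. Iron and antioxidant genes were higher in 11 of 20 and lower in 4 (median 0.72), with the ferritin gene Fth1 at 439 ± 23 and 170 ± 42 per 10000. The haem transporter gene Slc48a1 had a log2 fold change of 1.69 ± 0.15, while the iron exporter gene Slc40a1 was lower, at -1.26. With all 10 libraries Slc40a1 was at 0.09 and was not called.

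Antigen presentation and interferon gamma genes were lower or not called. No MHC class II gene was higher and 5 of 10 were lower (median -2.36): H2-DMb1 by -2.11 ± 0.16, H2-DMa by -1.92 ± 0.16, the class II transactivator gene Ciita by -3.26 ± 0.36, Cd74 by -2.65 and H2-Ab1 by -2.60. Without the anti-PD1 or the IgG library Cd74 and H2-Ab1 kept their direction but lost the edgeR call (highest adjusted p = 0.10 for Cd74 and 0.13 for H2-Ab1). Cd74 was detected in 70.0% of selected cells and 93.6% of comparison macrophages, and the share in T cells was 33.0%. Of 29 interferon gamma targets, 13 were lower and none higher (median -0.82). The T cell attracting chemokine gene Cxcl9 was 0.010, 0.238, 0.077 and 0.655 per 10000 in selected cells, against 0.031, 3.37, 3.02 and 9.82 in comparison macrophages, a log2 fold change of -4.17 ± 0.27. The guanylate binding protein genes Gbp4 (-3.06 ± 0.33) and Gbp7 (-1.91 ± 0.21) were lower too. Of 27 type I interferon targets, 3 were lower (Ifi204, Ifih1 and Oas2) and none higher (median -0.17). Without the anti-PD1 library none of these 3 was called by edgeR.

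Of 20 checkpoint and co-stimulation genes, 3 were higher and 9 lower (median -0.39). The galectin gene Lgals3 was 49.4 ± 8.7 per 10000 in selected cells and 15.8 ± 4.5 in comparison macrophages, and the adenosine-forming enzyme gene Nt5e (1.84) and Lilrb4a (0.76) were the other two higher. The co-stimulatory gene Cd86 was 0.466 ± 0.052 and 1.54 ± 0.55 per 10000 (log2 fold change -1.52 ± 0.19), and the ATP-degrading enzyme gene Entpd1 was lower, at -1.74 ± 0.19.

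Genes of resident-type and C1q-type macrophages were lower, in a contrast where C1q set the comparison cells and Folr2 was required to be 0 in selected cells. Of 21 resident-type genes, 13 were lower and none higher (median -1.98). The haemoglobin scavenger receptor gene Cd163 gave 6 UMIs among 3786162 in selected cells and 835 among 6507352 in comparison macrophages, and the hyaluronan receptor gene Lyve1 gave 3 and 305. The log2 fold change of Cd163 was -5.88 ± 0.65, and the ratio of summed counts of Lyve1 was 0.0169 (exact 95% interval 0.00347 to 0.0499, counting error only). Of 19 C1q-type macrophage genes, 15 were lower and 1 higher (median -1.48): the adhesion gene Vcam1 was 0.631 ± 0.260 per 10000 in selected cells and 6.59 ± 2.73 in comparison macrophages (log2 fold change -3.23 ± 0.20), and Aif1 was lower by -1.99 ± 0.14. With comparison macrophages also held to Folr2 at 0, 1398 of 7416 genes were called.

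The remaining large negative differences were in the complement genes C6 (-5.73 ± 0.39) and C4b (-3.96 ± 0.23), the chemokine gene Ccl8 (-4.83 ± 0.64), the neonatal Fc receptor gene Fcgrt (-3.86 ± 0.42), the Toll-like receptor gene Tlr12 (-3.82 ± 0.31), the DNase gene Dnase1l3 (-3.69 ± 0.45), the ficolin gene Fcna (-3.53 ± 0.56) and the protease gene Adamdec1 (-3.46 ± 0.33). Cd163, C6, Fcgrt, Dnase1l3 and Fcna were lower in selected cells in 10 of 10 libraries. Ccl8 lost its edgeR call without the 48 h, the anti-PD1 or the IgG library (highest adjusted p = 0.094).

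**Figure D3:**
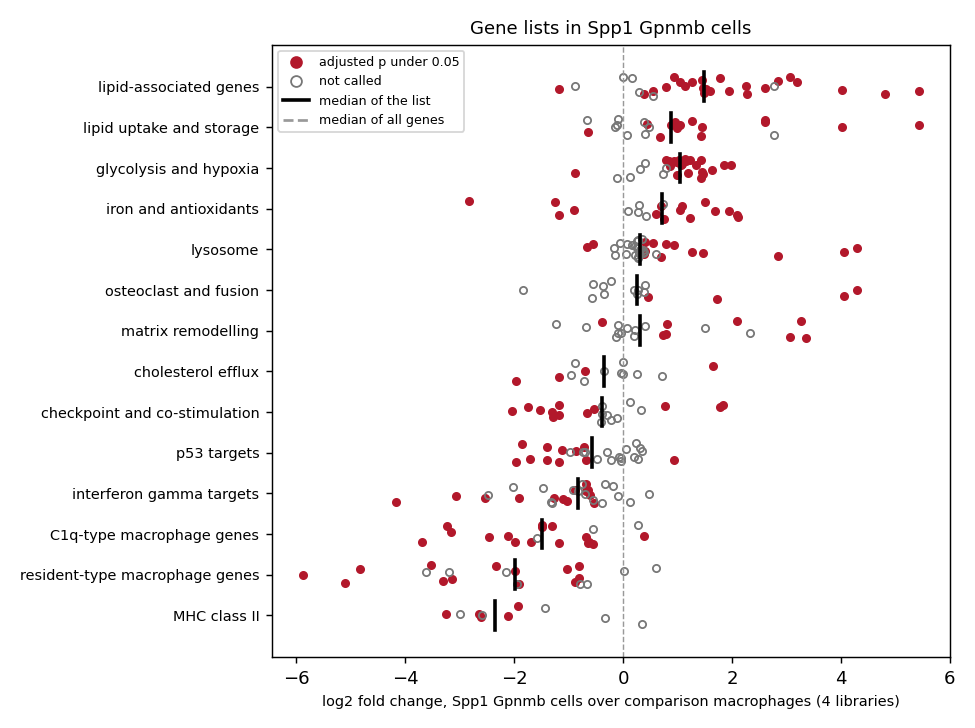
Log2 fold change of Spp1 Gpnmb macrophages over comparison macrophages in the 4 fitted libraries for the tested genes of 14 lists, 1 point per gene, filled where edgeR's adjusted p was under 0.05, with the median of each list as a black bar. The medians run from 1.48 for lipid-associated genes to -2.36 for MHC class II, and the dashed line is the median of all genes, -0.01.

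The count of called genes depended on the libraries and on depth. It was 1076 without the anti-PD1 library, which held 95 of the selected cells, and with all 10 libraries it was 1728 of 6826 genes, of which 1290 were also called in the 4 libraries, all in the same direction. In the CD45 libraries alone 317 of 7826 genes were called, and of the 281 of these that were tested in the CD4/8 libraries 275 had the same direction there. Selected cells were deeper than comparison macrophages. With cells thinned to 2000 UMIs, 439 of 2551 genes were called.

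Markers of other cells were compared between the classes. The 20 T and NK cell markers summed to 0.130 to 1.69 UMIs per 10000 in selected cells and to 0.158 to 2.80 in comparison macrophages over the 10 libraries. The 21 neutrophil markers summed to 61.7 and 31.7 per 10000 in selected cells of the doxorubicin CD45 libraries, against 4.38 and 5.58 in the untreated ones, and to 1.96 to 5.66 in the CD4/8 libraries. In comparison macrophages the same sums were 31.4 and 30.3, against 5.13 and 12.3, and 2.07 to 6.41. The 13 fibroblast markers summed to 16.0 per 10000 in selected cells of CD45 doxorubicin library 2 and to under 0.6 in selected cells of the other sorted libraries. In comparison macrophages they summed to 7.36 in that library and to 0.280 to 2.29 in the other sorted libraries. The 11 mast cell markers summed to 1.35 and 0.715 per 10000 in selected cells of the doxorubicin CD45 libraries, against 0.049 and 0 in the untreated ones. In comparison macrophages the mast cell sums were 0.617 and 0.669, against 0.160 and 0.325. The part of these markers in the differences was not tested.

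Selected cells of the 2 doxorubicin CD45 libraries were then tested against those of the 2 untreated ones, which asks what treatment changed within the class. They rest on 18 and 67 cells after doxorubicin, against 14 and 4 in untreated tumours. Of 4174 genes, 17 (0.407%) were called, of which 12 (0.287%) rose and 5 (0.12%) fell, at an adjusted p under 0.05 by edgeR, and 202 had an unadjusted p under 0.05. The genes that rose were Mfge8, Mmp12, Dcstamp, Cxcl14, Cx3cr1, H2-M2, Hdc and the neutrophil-type genes S100a8, S100a9, G0s2, Mmp9 and Wfdc21. The genes that fell were Vcam1, Dnase1l3, Iigp1, Irf1 and Slc40a1.

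Mmp12 was 52.1 and 81.8 per 10000 after doxorubicin, against 26.6 and 20.7 in untreated tumours, with a log2 fold change of 1.53 ± 0.34 (adjusted p = 0.0499). The groups did not overlap, as was the case for 667 genes with doxorubicin above (16.0%) and 671 with doxorubicin below (16.1%). The edgeR call was lost without untreated library 1, untreated library 2 or doxorubicin library 2 (highest adjusted p = 0.45). A few cells held much of it: the 2 cells with most Mmp12 UMIs held 82.1% of them in doxorubicin library 1 and 19.99% in library 2, against 85.0% and 94.6% in the untreated libraries. The median per cell was 1.28 and 29.1 per 10000 after doxorubicin, against 2.21 and 9.48, so by the median cell the groups overlapped. Mfge8 was 11.5 and 24.99 per 10000 after doxorubicin, against 0.438 and 0.797 in untreated tumours (log2 fold change 5.07 ± 0.54, adjusted p = 1.4e-05). Its UMIs were found in 7 of 18 and 38 of 67 cells after doxorubicin, against 4 of 14 and 1 of 4, and the 2 top cells held 95.5% of them in doxorubicin library 1 and 53.5% in library 2. In comparison macrophages Mfge8 was 0.258 and 0.728 after doxorubicin, against 0.141 and 0.108. Lpl was 14.7 and 34.8, against 16.0 and 18.8, and Cd36 was 6.58 and 11.1, against 7.59 and 13.2 (log2 fold changes 0.53 ± 0.39 and -0.21 ± 0.40). Both overlapped between the groups and neither passed the test.

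Dcstamp, the fusion gene, was 1.40 and 0.734 per 10000 after doxorubicin, against 0.049 and 0 in untreated tumours, which is 131 UMIs against 1 and a ratio of 24.5 (exact 95% interval 4.32 to 974.8, counting error only). The chemokine gene Cxcl14 was 1.43 and 2.85, against 0 and 0.159, or 354 UMIs against 1 and a ratio of 66.2 (interval 11.8 to 2622). Cx3cr1, the fractalkine receptor gene, was 1.58 and 1.46, against 0.243 and 0. H2-M2, a non-classical MHC class I gene, was 1.17 and 1.67, against 0.097 and 0, or 220 UMIs against 2 and a ratio of 20.6 (interval 5.63 to 170.9). Hdc, which encodes histidine decarboxylase and stands in both the neutrophil and the mast cell marker lists, gave 123 UMIs against 1, and Wfdc21 gave 155 against 1. Single cells held much of these counts. In doxorubicin library 1 the top cell held 85.2% of the Dcstamp UMIs, 58.2% of Cxcl14 and 91.1% of H2-M2, and in library 2 it held 16.9%, 52.5% and 58.9% of them.

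The neutrophil-type genes rose together with the neutrophil marker sums given above. S100a8 was 15.9 and 10.4 per 10000 after doxorubicin, against 0.341 and 0.159, and in comparison macrophages of the same libraries 8.92 and 9.62, against 0.181 and 2.39. S100a9 had 1903 UMIs after doxorubicin and none in untreated selected cells. With the floor set at 3 UMIs over the untreated group, S100a9 was at least 119-fold higher. On the same floor G0s2 was at least 12.9-fold and Mmp9 at least 7.85-fold higher. These limits cover counting error only. The top cell held 60.5% of the S100a9 UMIs and 57.4% of the S100a8 UMIs in doxorubicin library 1. In library 2 the top cell held 30.01% and 32.5% of them. The median per cell after doxorubicin was 1.83 and 0.813 per 10000 for S100a9 and 2.07 and 1.31 for S100a8. Of the 21 neutrophil markers 14 were tested and 5 rose. Without cells that held any UMI of S100a8, S100a9, Cd79a, Cpa3 or Krt18, or in the top 5% of UMIs of their library, which left 1 and 11 cells after doxorubicin, against 8 and 3 in untreated tumours, edgeR called none of 1326 genes, and 34 had an unadjusted p under 0.05.

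Among the genes that fell, Vcam1 was 0.984 and 0.458 per 10000 after doxorubicin, against 4.04 and 2.87 in untreated tumours (log2 fold change -2.31 ± 0.49, adjusted p = 0.028). Dnase1l3 was 0.130 and 0.010, against 1.27 and 1.28 (log2 fold change -4.65 ± 0.75, adjusted p = 0.0035). The interferon-induced GTPase gene Iigp1 was 0.104 and 0.200, against 1.27 and 0.957, and Irf1, a transcription factor gene of the interferon response, was 0.622 and 0.429, against 2.04 and 2.39. Their log2 fold changes were -2.73 ± 0.55 and -2.06 ± 0.46. The iron exporter gene Slc40a1 was 0.155 and 0.343, against 1.995 and 1.60 (log2 fold change -2.71 ± 0.51). None of these 5 genes overlapped between the groups. In untreated library 2 all UMIs of Vcam1 and Dnase1l3 came from 1 of the 4 cells. Vcam1, Iigp1, Irf1 and Slc40a1 lost their edgeR call without untreated library 1, as did Dcstamp, Cxcl14, Cx3cr1 and H2-M2.

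For the same contrast in comparison macrophages 608 of 10714 genes (5.67%) were called, and the change differed between the classes for 88 of 8751 genes (1.01%) in a test of the difference itself. Few list members passed within the class. Of 27 lipid-associated genes tested, Mmp12 rose and none fell (median 0.30, all genes 0.01). Of 21 interferon gamma targets, Iigp1 and Irf1 fell in selected cells and none rose (median -0.81). In comparison macrophages 13 of 30 such targets fell and none rose (median -1.52). There 9 of 13 MHC class II genes also fell and none rose (median -1.48). No gene was called in selected cells among 33 lysosomal genes (median 0.02), 29 glycolysis and hypoxia genes (median -0.76) or 8 MHC class II genes (median -1.19). Of 17 called genes 3 (S100a8, S100a9 and Mfge8) were called with each of the 4 libraries left out in turn. The count was 7 without untreated library 1, 49 without untreated library 2, 58 without doxorubicin library 1 and 34 without doxorubicin library 2, and it was 9 with DESeq2.

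The CD4/8 libraries come from a separate sort, at 1 library per group. Over both sorts, Mfge8 ran from 11.5 to 48.2 per 10000 (median 19.9) in the 7 doxorubicin-treated libraries, against 0.438, 0.797 and 2.64 in the 3 untreated ones. Mmp12 ran from 32.3 to 88.6 (median 52.1), against 20.7, 26.6 and 31.0. Vcam1 ran from 0.255 to 1.02 (median 0.500), against 2.87, 4.04 and 7.11, and Dnase1l3 from 0 to 1.26 (median 0.041), against 1.27, 1.28 and 2.10. Cxcl14 ran from 0.392 to 2.85 (median 1.08), against 0, 0 and 0.159. These 5 genes and S100a8 did not overlap between treated and untreated libraries, as was the case for 70 (1.68%) of the 4174 genes with treated libraries above and 77 (1.84%) with treated libraries below. The other 11 of the 17 called genes overlapped: Slc40a1, Iigp1, Irf1, H2-M2, Cx3cr1, Dcstamp, S100a9, G0s2, Mmp9, Hdc and Wfdc21. S100a9, for instance, had a median of 0.086 in the treated libraries and G0s2 a median of 0. With the CD4/8 libraries at 48 h and untreated added to the CD45 fit and the sort as a term, 8 of 4001 genes were called, among them S100a8, Cxcl14, Vcam1 and Dnase1l3, and Mfge8 was at 4.09 (adjusted p = 0.074). The 10 libraries include the 4 of the CD45 comparison, in which none of the 17 called genes overlapped. Only genes that did not overlap there could stay apart over all 10 libraries. Those were 667 genes with doxorubicin above and 671 with doxorubicin below. The shares over all 4174 genes are therefore no base for the called genes, and no replication is read from them.

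**Figure D4:**
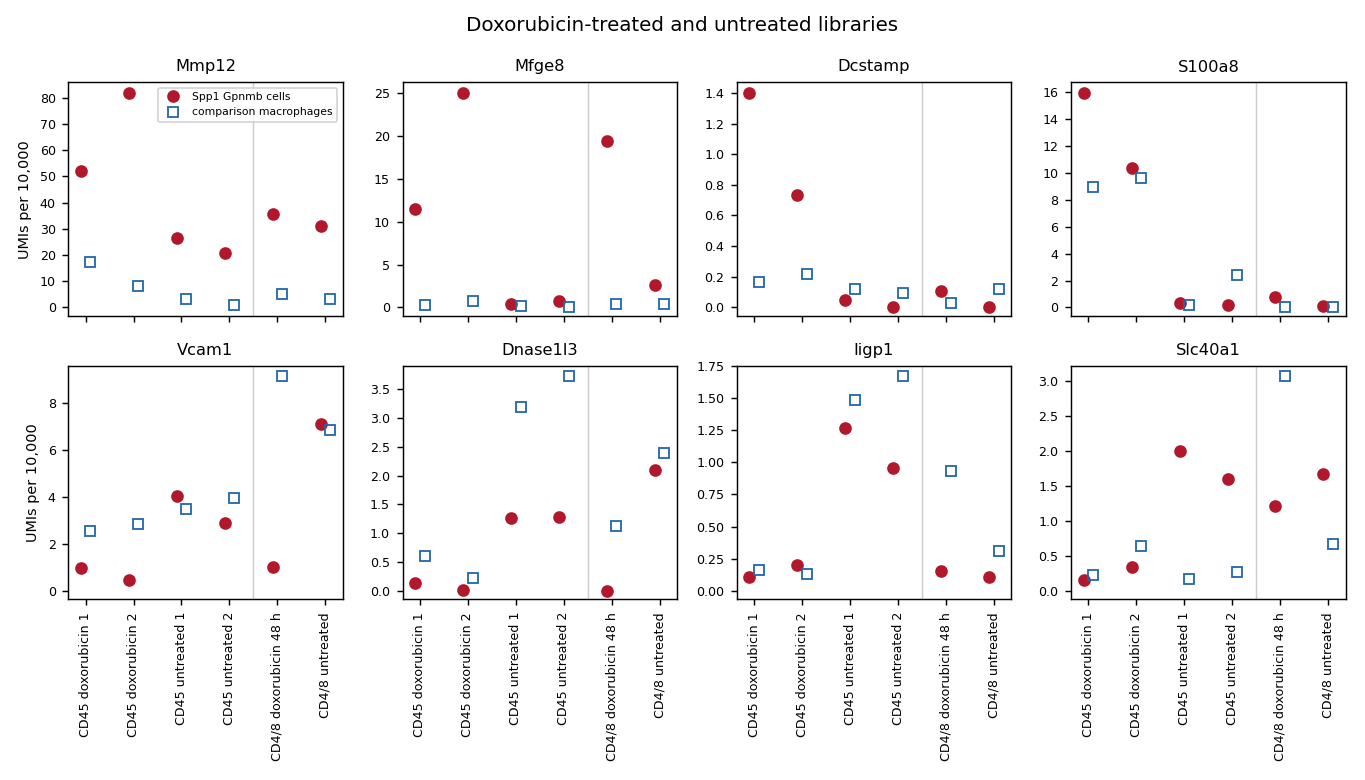
Level of 8 genes in Spp1 Gpnmb macrophages (filled circles) and comparison macrophages (open squares), in UMIs per 10000 UMIs, in the CD45 libraries (left of the line) and the CD4/8 libraries at 48 h and untreated (right of it). Mfge8 is 11.5 to 24.99 in selected cells of the 3 doxorubicin libraries shown and 0.438 to 2.64 in the 3 untreated ones, and S100a8 is high in both classes of the doxorubicin CD45 libraries.

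Selected cells also varied among themselves, and the 2 libraries with most of them, CD45 doxorubicin library 2 (67 cells) and the anti-PD1 library (95 cells), were used to describe this. Across cells of a library, levels per UMI share depth and free RNA, and the correlations are given with no test. Mmp12, Lpl and Cd36 went together: Spearman's rho was 0.69 and 0.52 for Mmp12 with Lpl, 0.56 and 0.48 for Mmp12 with Cd36, and 0.63 and 0.43 for Lpl with Cd36, in that order of libraries. For Gpnmb, rho was 0.46 and 0.58 with Fabp5, 0.56 and 0.39 with Fabp4, 0.43 and 0.49 with the cathepsin gene Ctsl, 0.35 and 0.55 with the proton pump gene Atp6v0d2, and 0.13 and 0.17 with another cathepsin gene, Ctsk. Arg1 went with the hypoxia gene Bnip3 (0.33 and 0.49) and Plin2 (0.24 and 0.35) and against Gpnmb (-0.27 and -0.23). Between Spp1 and Gpnmb, both used by the rule, rho was 0.21 and 0.33. Over these genes, Spp1 included, rho with UMIs per cell was between -0.25 (Ctsl) and 0.29 (Ctsk) in CD45 doxorubicin library 2. In the anti-PD1 library it reached 0.45 for Fabp5, 0.44 for Fabp4 and 0.38 for Cd36, and was between -0.004 and 0.28 for the others. The part of depth in the correlations was not tested.

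**Figure D5:**
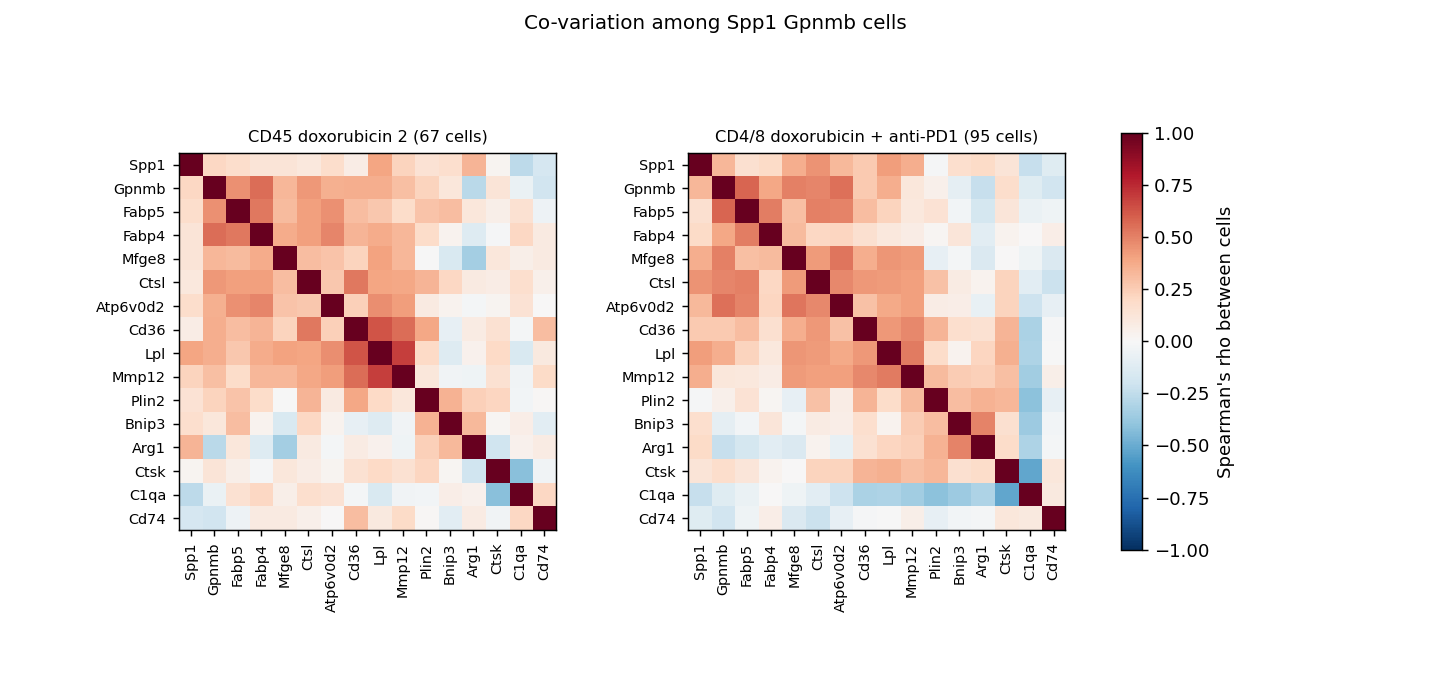
Spearman's rho between levels per UMI of 16 genes across Spp1 Gpnmb macrophages of CD45 doxorubicin library 2 (67 cells, left) and of the CD4/8 anti-PD1 library (95 cells, right), from -1 (blue) to 1 (red), with genes in both axes. The block of Cd36, Lpl and Mmp12 is positive in both libraries, with rho from 0.43 to 0.69.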

How the data were processed

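Single-cell RNA libraries of sorted tumour cells were made with a Chromium 3' kit, per the labels' protocols. The deposited values are UMI counts per gene and barcode that the authors made with Cell Ranger 6.0.0, per the file headers, on mm10. The sorted libraries' count matrices hold no gene names, so their 32285 rows were named by the row order of the pooled tumour count table. Total UMIs per row, on a log scale, correlated with those of that table at 0.954 or more in that order. They correlated at 0.354 or less when shifted. Library totals ran from 16908180 to 93748407 UMIs. No doublet caller was run. Cells with marker UMIs of other lineages or in the top 5% of UMIs were left out as an alternative.

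Counts were summed per library and class. The sums went into edgeR 4.0.16 (R 4.3.3) with TMM scaling and a low-count filter (robust quasi-likelihood test, two-sided, Benjamini-Hochberg over all genes tested). Genes of the selection rule were left out of every test. Standard errors are the log2 fold change divided by the square root of F. The comparison with other macrophages used libraries with at least 20 cells of both classes. That minimum was also planned for the treatment comparison but left 1 library, so it was fitted without a minimum. Levels are UMIs per 10000 UMIs. Alternatives were DESeq2 1.42.0, other scaling and filters, thinning to 2000 UMIs, other thresholds and leaving out libraries. The edgeR step was tested on simulated data.

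Named genes were the 10 largest called changes in each direction with a mean of at least 50 CPM in the higher group and the same direction in every pair, or no overlap, the 5 largest in each direction for the difference between treatment changes, and up to 3 called genes per list. Cx3cr1, Trem2, Ccr2, Bnip3, Axl, Mertk, Mki67, Top2a, and list members named because 5 or fewer were called in a direction, were chosen after their values were seen. The members and lists were chosen with earlier results of these data known. One gene that met the naming rule is not reported here. A bulk table of cultured tumour cells was not used here.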

Additional observations from a re-analysis of the deposited data

Results flagged for a closer look

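The treatment change of Spp1 Gpnmb macrophages was set against that of comparison macrophages in the CD45 libraries by an interaction term with the library as a block. In edgeR's quasi-likelihood test 88 of 8751 genes (1.01%) differed in their change at an adjusted p under 0.05, 46 with the more positive change in selected cells and 42 with the more negative one. Untreated library 2 held 4 of the selected cells, and the count moved with single libraries: 1 gene was called without untreated library 1 and 5 without untreated library 2.

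The 5 largest positive differences between log2 changes were S100a9 at 11.5, Sparc at 9.84, Stmn1 at 4.93, H2-M2 at 4.69 and Cxcl14 at 3.83. S100a9 and Sparc had no UMI in untreated selected cells, so their fitted values depend on the prior count. Sparc, a matrix protein gene that fibroblasts express, was 0 and 3.24 per 10000 in selected cells after doxorubicin, so it rests on library 2, where the fibroblast markers summed to 16.0 per 10000. Stmn1, a microtubule regulator gene of dividing cells, was 1.11 and 0.381 in selected cells after doxorubicin, against 0.195 and 0 in untreated tumours, and 0.067 and 0.290 in comparison macrophages, against 0.974 and 1.83. H2-M2 in comparison macrophages was 0.333 and 1.07 after doxorubicin, against 0.751 and 0.884. Cxcl14 there was 0.300 and 0.345, against 0.075 and 0.071.

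The 5 largest negative differences were C4b at -4.12, Slc40a1 at -3.82, Clec10a at -3.70, Mmp8 at -3.56 and Fcgrt at -3.27. The complement gene C4b was 0.052 and 0.038 per 10000 in selected cells after doxorubicin, against 0.243 and 0.638, and 1.70 and 1.22 in comparison macrophages, against 0.611 and 0.492. Slc40a1 in comparison macrophages was 0.225 and 0.638 after doxorubicin, against 0.162 and 0.264. The lectin gene Clec10a was 0.285 and 0.057 in selected cells, against 0.195 and 0.478, and 1.88 and 3.99 in comparison macrophages, against 0.504 and 0.242. The collagenase gene Mmp8 was 0.570 and 0.372 in selected cells, against 0.876 and 2.71. The value of 2.71 comes from untreated library 2, with its 4 selected cells. In comparison macrophages Mmp8 was low, from 0 to 0.225 over the 10 sorted libraries. Fcgrt was 0.337 and 0.114 in selected cells, against 0.827 and 0.797, and 3.36 and 5.56 in comparison macrophages, against 1.90 and 1.47.

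The pooled whole-tumour table, which no comparison used, held 25 selected cells among 889 macrophages (2.81%), 8 of 241 in the first barcode set and 17 of 648 in the second.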

How the results depend on the processing

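Against other macrophages, 1750 genes were called. DESeq2 called 1128, leaving out single libraries gave 1076 to 1722, thinning gave 439 of 2551, the CD45 libraries alone 317, and all 10 libraries gave 439 of 3437 without high-UMI and mixed cells and 386 of 1840 thinned. Of 1058 settings of 85 named genes, 1 changed sign, Ifi204 (0.062) in the CD45 libraries alone, and another 106 kept their sign but lost the call. For treatment within the class, 17 genes were called. Leaving out single libraries gave 7 to 58, no low-count filter 36, DESeq2 9, Spp1 at 20 or at 5 per 10000 gave 10 and 9, Gpnmb at 2 UMIs 5, and the CD4/8 libraries added gave 8. edgeR called 0 of 1326 genes without high-UMI and mixed cells and 0 of 518 after thinning (34 and 25 genes at an unadjusted p under 0.05). The replicate block gave 65, where same-numbered libraries' deviations correlated at 0.19 in selected cells and 0.07 in comparison macrophages. The labels do not say whether a number marks a shared animal or batch. Cd36 ran from -0.67 to 0.31 and Lpl from -0.25 to 1.05 without single libraries, and Cd36 was at 0.51 without mixed cells. Of 231 settings of 19 named genes for treatment within the class, 4 changed sign. In comparison macrophages, 608 of 10714 genes (5.67%) were called, 1422 with no filter and 168 to 654 without single libraries. The difference between the changes gave 17 with DESeq2, 1 to 47 without single libraries and 36 with the CD4/8 libraries. The cause was not tested. In the CD45 libraries the mean share of macrophages was higher after doxorubicin in every alternative tried, by 1.99 to 4.67 points, and that of all cells by 1.14. The 4.67, without mixed cells, rests on 1 of 15 macrophages in doxorubicin library 1, and there the CD4/8 library at 48 h lay below the untreated one. The comparison with other macrophages, with a minimum of 20 cells, could not be run in the CD45 libraries alone or without mixed cells, since 1 library remained, and these were fitted without it, chosen after seeing the data. The 4 selected cells of untreated library 2 limit every treatment result.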

Other observations

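Cell cycle genes were tested less completely, since most were too low. Of 10 G2/M genes tested of 32, 5 were higher in Spp1 Gpnmb macrophages than in comparison macrophages and none lower (median log2 fold change 1.58), among them the spindle genes Tpx2 (2.37 ± 0.41) and Cenpe (2.29 ± 0.46). With all 10 libraries none of 5 tested was called by edgeR (median 0.66), and in the CD45 libraries alone none of 12 (median 0.29). In neither did a gene have an unadjusted p under 0.05. Over the sorted libraries, Mki67 was detected in 18.6% of selected cells and 17.3% of comparison macrophages, and Top2a in 13.1% and 12.4%. With cells thinned to equal depth, these shares were 4.66% and 7.24% for Mki67 and 3.94% and 4.45% for Top2a. Of 16 S phase genes tested of 30, Dut and Pcna were higher and none lower (median 0.42), where 10.7% of all genes tested were higher. The 5 G2/M calls and the S phase calls come from doxorubicin-treated libraries only. In comparison macrophages of the CD45 libraries, 15 of 32 G2/M genes fell after doxorubicin and none rose (median -2.34). Of 30 S phase genes there, 21 fell and none rose (median -2.11). The part of these falls in the calls was not tested. Of 26 p53 target genes, 10 were lower and 1 higher (median -0.57), with the stress cytokine gene Gdf15 at -1.86 ± 0.17 and Btg2 at -1.41 ± 0.18. Of 17 monocyte genes, 3 were higher and 6 lower (median 0.47), Hp by 2.55 ± 0.33 and Ccr2, the receptor gene for monocyte recruitment, by -1.95 ± 0.29.

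Of 22 growth factor and cytokine genes, 4 were higher and 6 lower (median -0.33): Csf1 was at 1.23 ± 0.28 and the anti-inflammatory cytokine gene Il10 at -2.75 ± 0.25. Of 19 chemokine genes, 3 were higher and 5 lower (median -0.26), with Ccl9 at 1.70 ± 0.20 and Ccl7 at -1.15 ± 0.14. Of 10 sterol synthesis genes, Mvd was higher and Insig1 lower.

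In the pooled tumour table Mfge8 was 83.6 per 10000 in selected cells of the first barcode set and 0.895 in those of the second, and Mmp12 was 97.3 and 19.4. The sets were not mapped to a treatment.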
